A study of Bombyx mori with 12 samples.

Results

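The regions described here are the broad Ubx peaks that stood alone in hindwing buds of the silkworm Bombyx mori. They were taken from the list of peaks found with anti-Ubx in both hindwing replicates, as those at least 900 bp wide with no other peak of the list within 30000 bp on the same scaffold. Of 1128 hindwing peaks, 293 met this rule (26.0%), and they held 371081 of the 1128272 bp that all hindwing peaks covered (32.9%). They are called solitary broad peaks here. Set beside them are 416 solitary narrow peaks, which stood alone by the same rule but were narrower than 900 bp. The remaining 419 hindwing peaks had another peak within 30000 bp.

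Ultrabithorax (Ubx) is a Hox protein, a homeodomain transcription factor that gives the third thoracic segment its identity. In Drosophila it turns the hindwing primordium into a haltere, a balancing organ, whereas in Bombyx the third thoracic segment forms a functional hindwing. In chromatin immunoprecipitation (ChIP), DNA crosslinked to a protein is pulled down with an antibody and sequenced, and a peak is a stretch of genome where the pulled-down reads pile up above those of unselected input chromatin.

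All samples were wing buds of fourth-instar larvae of the Daizo strain, with 80 buds pooled for an experiment and no genetic change or treatment. The 12 samples were 6 groups of 2 replicates: hindwing and forewing buds, each with anti-Ubx ChIP, normal rabbit IgG and input. The antibody was a rabbit polyclonal against the N-terminal part of Bombyx Ubx, which lacks the homeodomain that Hox proteins share. Whole buds were used, so cell types within them, the covering peripodial membrane included, cannot be told apart. Of the processed data, 4 peak lists were used: hindwing and forewing anti-Ubx peaks, each common to both replicates, and 2 lists from single IgG libraries, labelled forewing IgG control replicates 1 and 2 and called IgG list 1 and IgG list 2. The header of IgG list 1 names hindwing libraries, which goes against its label, so the IgG lists were kept apart. The IgG libraries retained 3309855 and 2152046 tags. Read totals of the anti-Ubx libraries were not used here. Each anti-Ubx peak has a single set of values from a replicate that is not named, so none of these values has a replicate error.

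The peaks were chosen by their width and by their distance from other peaks, both measured in the hindwing list, and these are given as a description. The median width was 1130 bp in solitary broad peaks (quartiles 985 and 1361 bp) and 655 bp in solitary narrow peaks (593 and 770.2 bp). Most solitary broad peaks lay not far above the limit: 82 were under 1000 bp, 166 were from 1000 to under 1500 bp, 29 were from 1500 to under 2000 bp, and 16 were 2000 bp or wider. The 3 narrowest measured 900, 902 and 903 bp, with fold enrichments of 3.12, 4.70 and 2.60, and lay on nscaf2770, nscaf1690 and nscaf1886. The 3 peaks just below the limit measured 899, 898 and 898 bp, with fold enrichments of 4.50, 4.58 and 6.13, and lay on nscaf2902, nscaf1108 and nscaf2956. The ranges of fold on the 2 sides of the limit overlapped. The limit on distance was passed most narrowly by peaks on nscaf3099, nscaf2818 and nscaf2855, with gaps of 30436, 31532 and 32483 bp and folds of 5.34, 6.35 and 4.17. It was missed most narrowly, among peaks of 900 bp or more, on nscaf2589, nscaf2970 and nscaf2529, with gaps of 28439, 28299 and 28166 bp and folds of 4.85, 3.92 and 2.55.

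The call that gave the widths also gave 3 values for each peak. The score is 10 times the negative log10 of the p-value from MACS, the peak caller the authors used. The fold enrichment compares the peak with the local background in input. The false discovery rate (FDR) comes from a swap of ChIP and input, and the authors kept peaks up to 15%. These values belong to the same call as the widths and are described without a test.

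Solitary broad peaks had higher scores and lower FDR than solitary narrow ones, while the folds overlapped widely. The median score was 255.6 in solitary broad peaks (quartiles 152.96 and 400.1) and 92.0 in solitary narrow peaks (74.4 and 128.7), against 132.4 over all 1128 hindwing peaks. The median fold enrichment was 4.86 in solitary broad peaks (quartiles 3.63 and 6.19) and 3.81 in solitary narrow peaks (3.28 and 4.57), with 4.15 over all hindwing peaks. The median FDR was 7.52% and 12.9% for broad and narrow solitary peaks. The quartile ranges of score did not overlap between the classes, whereas those of fold did.

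At strict limits of FDR and score, few solitary narrow peaks were left, while peaks with a close neighbour had shares near those of solitary broad peaks. An FDR of 5% or less was reached by 44 of 293 solitary broad peaks (15.0%), 1 of 416 solitary narrow peaks (0.240%) and 62 of the 419 peaks with a close neighbour (14.8%). A score of at least 500 was reached by 41 solitary broad peaks (14.0%), 1 solitary narrow peak and 56 peaks with a close neighbour (13.4%). A fold enrichment of at least 10 was reached by 12 solitary broad peaks (4.10%), 2 solitary narrow peaks (0.481%) and 5 peaks with a close neighbour (1.19%). At each of these limits the share was largest in solitary broad peaks. For FDR and score it was only slightly above that of peaks with a close neighbour. Peaks with a close neighbour were of any width (median 933 bp, lower quartile 690.5 bp). Over all hindwing peaks, width went with score (Spearman's rho 0.72). Those with a close neighbour and 900 bp or more were not set apart, so these shares do not compare peaks of like width. Of the 50 hindwing peaks of highest score, 21 were solitary and broad, 1 was solitary and narrow, and 28 had a close neighbour. Of the 50 hindwing peaks of highest fold, 25 were solitary and broad, 5 were solitary and narrow, and 20 had a close neighbour. Of the 50 widest, 17 were solitary and 33 had a close neighbour. A fold under 3 was found in 32 solitary broad peaks (10.9%), 66 solitary narrow peaks (15.9%) and 46 peaks with a close neighbour (11.0%).

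**Figure D1:**
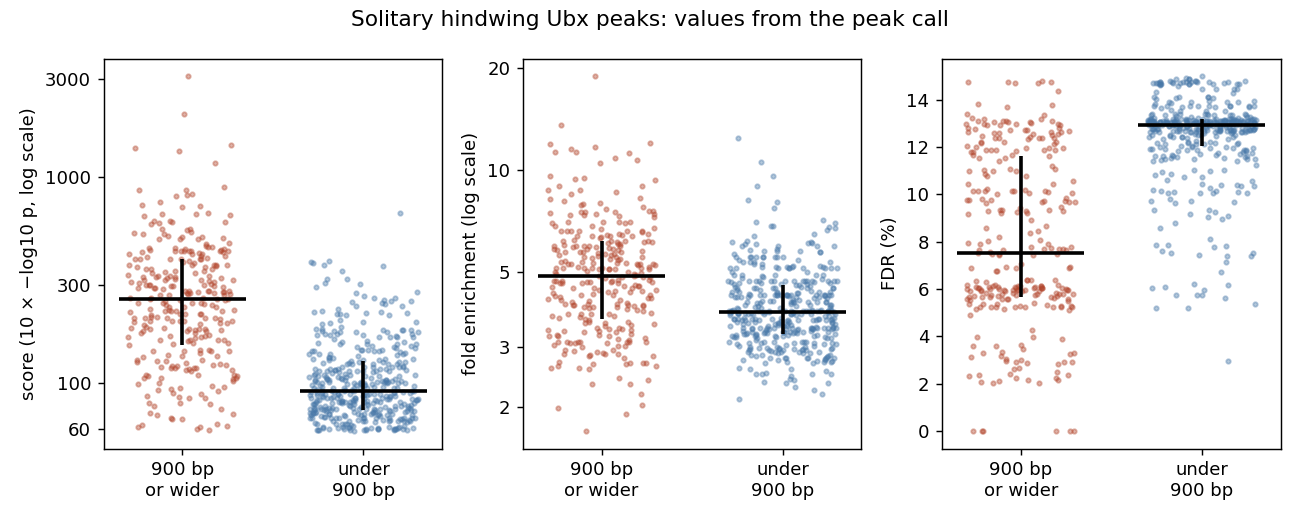
Score, fold enrichment and FDR of the 293 solitary broad and 416 solitary narrow hindwing peaks. Each point is a peak, horizontal bars are medians and vertical bars run between quartiles; the score medians are 255.6 for broad and 92.0 for narrow peaks, while the fold medians are 4.86 and 3.81.

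Among the solitary broad peaks themselves, width went with score but hardly with fold. Over the 293 peaks Spearman's rho was 0.43 between width and score, 0.05 between width and fold, and 0.81 between score and fold. All 3 values come from the same reads of each peak, so these are descriptions of the call. In 5 bands of width, of 82, 110, 56, 29 and 16 peaks in order of width, the median score was 183.9, 262.8, 278.9, 413.7 and 482.9. The median fold over the same bands was 4.70, 5.15, 4.53, 5.13 and 4.86. A peak 2000 bp wide or more was thus no higher over input, at the median, than one in the second band. Both bands were wide, with folds of 2.67 to 18.9 and 1.70 to 13.6.

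**Figure D2:**
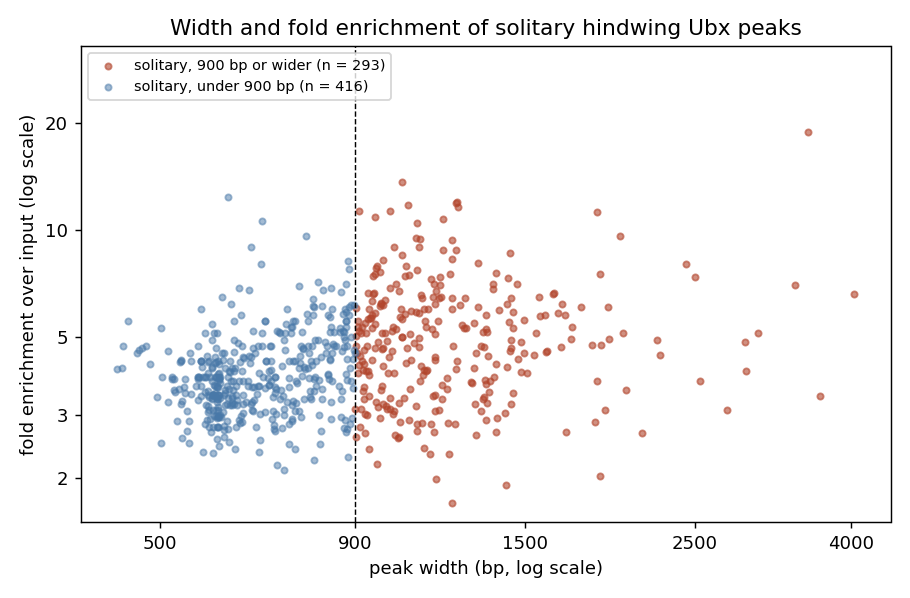
Fold enrichment over input against peak width, both on log scales, for solitary hindwing peaks; each point is a peak and the dashed line marks 900 bp. Right of the line the folds spread from 1.70 to 18.9 with no trend along width (rho 0.05, n = 293).

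When peaks of like score were set side by side, the order of the folds turned round. At scores from 50 to under 100 the median fold was 2.83 in 31 solitary broad peaks and 3.39 in 234 solitary narrow peaks. From 100 to under 200 it was 3.59 in 78 broad and 4.45 in 146 narrow peaks. From 200 to under 400 it was 5.29 in 110 broad and 5.98 in 35 narrow peaks. In each of these 3 bands the broad peaks had the lower median fold, although they had the higher one over all scores. At 400 and above there were 74 solitary broad peaks, with a median fold of 7.02, and a single narrow peak, with a fold of 12.4. Bands and classes come from the same call, and this order was not tested. Over all hindwing peaks the score rose with both width and fold (Spearman's rho 0.72 and 0.78). The classes differ in width by the rule, with medians of 1011 and 606.5 bp in the lowest band. A lower fold in the wider class at like score is therefore not separate from the rule.

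**Figure D3:**
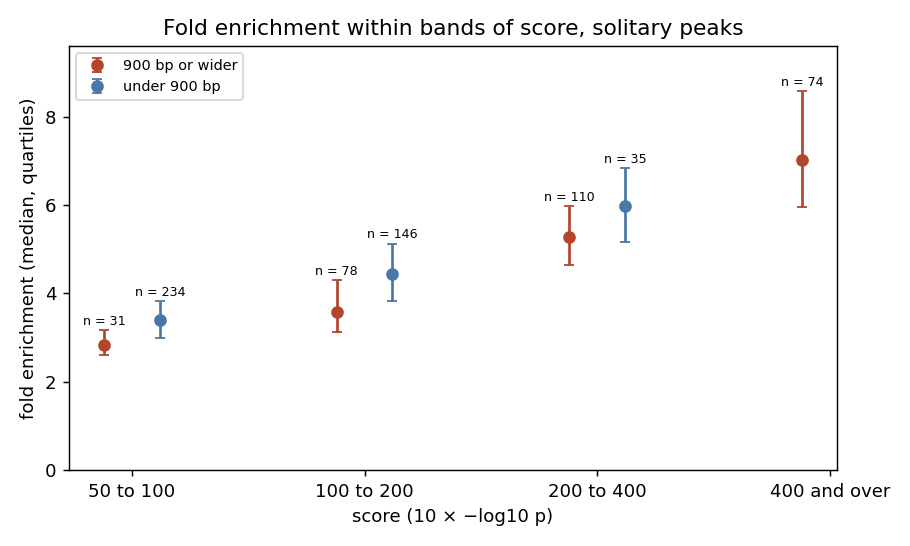
Median fold enrichment, with quartiles, of solitary peaks in 4 bands of score; numbers above the bars count peaks, and the single narrow peak with a score of 400 or more is not drawn. In the 3 lower bands the broad peaks lie below the narrow ones, at 2.83 against 3.39, 3.59 against 4.45 and 5.29 against 5.98.

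The strongest solitary broad peak was the same by score and by fold. It lay on nscaf2853, 889734 to 893247, with a width of 3514 bp, a fold enrichment of 18.9 and a score of 3100. That score was the highest in the hindwing list, and 1 other hindwing peak, outside this set, also reached it. Next by score was a peak on nscaf1681, 5878630 to 5882006, where a fold of 7.0 went with a score of 2040. It was followed by nscaf2853, 2999055 to 3000274 (score 1442, fold 11.9), scaffold779, 16784 to 17956 (score 1392, fold 10.7), and nscaf2136, 7467051 to 7468620 (score 1339, fold 5.73). These 5 peaks had an FDR of 0, which 6 solitary broad peaks, no solitary narrow peak and 6 peaks with a close neighbour shared. After nscaf2853, 889734 to 893247, the highest folds were on nscaf3026, 2982236 to 2983270 (fold 13.6), nscaf2891, 570392 to 571615 (12.0), nscaf2853, 2999055 to 3000274 (11.9), and nscaf2795, 3223805 to 3224860 (11.7). These last 4 were compact, at 1035, 1224, 1220 and 1056 bp.

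The widest solitary broad peaks ranged from strong to moderate. The widest of all, 4035 bp on nscaf3072, 976680 to 980714, had a score of 1176 and a fold of 6.61. The second, 3648 bp on nscaf3035, 131063 to 134710, had a fold of only 3.40 and a score of 448.5, with an FDR of 6.29%. The peaks on nscaf2853 and nscaf1681 named above came next, at 3514 and 3377 bp. The fifth, 3021 bp on nscaf3035, 821008 to 824028, had a fold of 5.13 and a score of 663.9. The 5 widest peaks thus had folds from 3.40 to 18.9.

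Solitary broad peaks were spread over the genome. They lay on 109 of the 188 scaffolds that held a hindwing peak, with 1 such peak on 43 of them and 5 or more on 20, which together held 130. The most lay on nscaf2529, with 11 solitary broad, 5 solitary narrow and 14 other peaks, and on nscaf2888, with 10, 15 and 17. Per Mb of scaffold extent, taken as the largest peak end over the 4 lists, the density on the 20 scaffolds ran from 0.309 on nscaf1898 to 2.83 on nscaf3035. On nscaf3045, 6 of 7 solitary peaks were broad (85.7%), and on nscaf1898 5 of 17 were (29.4%), against 41.3% over all 709 solitary peaks. The distance to the nearest listed peak, which the rule bounds from below, had a median of 147972 bp for broad and 147540 bp for narrow solitary peaks.

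Solitary here means alone in the list of peaks kept, and the names of the peaks bear on this. MACS numbers its peaks in order of position. The 2 IgG lists, which hold every number from 1 to 10213 and from 1 to 8986, showed this order in all of their 9138 and 8124 neighbouring pairs. The hindwing list followed the same order in all 940 pairs, but its numbers ran up to 8527 over 1128 rows, so the list held 13.2% of the numbers up to its highest. A skipped number was read as a peak of the same call that the list does not hold. Between a solitary broad peak and its nearest listed peak, a median of 4 numbers were skipped (quartiles 2 and 7), and none were skipped for 21 of 277 peaks (7.58%, Wilson 95% interval 5.01% to 11.3%). For solitary narrow peaks the median was also 4, and none were skipped for 39 of 360 (10.8%, 8.03% to 14.5%). The intervals overlapped, and the difference between the classes was not tested. Of peaks with a close neighbour, 216 of 419 had no number skipped (51.6%).

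**Figure D4:**
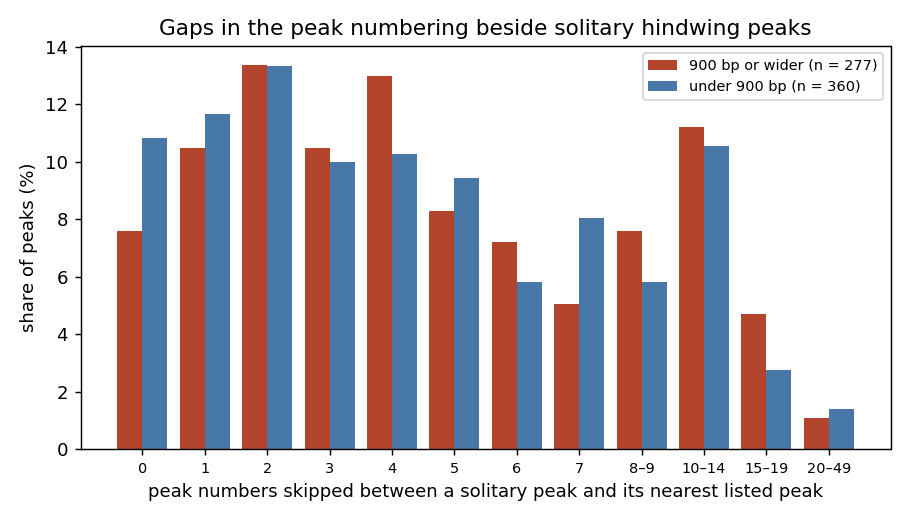
Share of solitary hindwing peaks, in percent, by how many MACS peak numbers were skipped between the peak and its nearest listed peak; the bins widen to the right. Both classes centre on 4 skipped numbers, and the bar at 0 holds 7.58% of the broad and 10.8% of the narrow peaks.

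Counted over the gaps on both sides, 18.8 numbers were skipped per Mb beside solitary broad peaks and 16.9 beside solitary narrow peaks, which is 0.565 and 0.507 for each 30000 bp. Beside peaks with a close neighbour the count was higher, at 24.2 per Mb and 0.725 for each 30000 bp. Where in a gap the unlisted peaks lay was not known. Of 194 solitary broad peaks with a listed peak on both sides, 1 had no number skipped on either side: nscaf2681, 746261 to 747406, with a fold of 5.10, a score of 309.5 and gaps of 36190 and 116441 bp. It was named after its values were seen. For each of the others, an unlisted number fell between the peak and a listed one on at least 1 side, at a distance that is not known, so whether these peaks also stood alone in the call was not known.

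The forewing list is independent of the rule that chose the peaks, and asks which solitary broad regions were also found in forewing buds. Because a wide peak has more room to meet another, the test counted a peak only when its central base lay in a forewing peak. This held for 9 of 293 solitary broad peaks (3.07%, Wilson 95% interval 1.62% to 5.73%) and for 4 of 416 solitary narrow peaks (0.962%, 0.375% to 2.45%), against 2.13% of all hindwing peaks and 11 of the 419 with a close neighbour (2.63%). The difference between broad and narrow solitary peaks was 2.11 percentage points (Newcombe 95% interval 0.0369 to 4.84). It did not pass after adjustment over the 3 lists compared (two-sided Fisher's exact test, p = 0.048; Benjamini-Hochberg adjusted p = 0.144). Peaks are not replicates of a wing bud, and the intervals cover counting error only.

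In the 9 shared regions the hindwing and forewing peaks nearly coincided. By any overlap of 1 bp or more, the same 9 solitary broad peaks (3.07%) met a forewing peak, against 5 narrow ones and 2.75% of all hindwing peaks. Peaks with a close neighbour had the larger share by this rule, at 17 of 419 (4.06%). The forewing peak covered from 71.6% to 100% of the hindwing peak (median 96.7%), and the centres lay from 0 to 1480 bp apart (median 80 bp). The closest match was on nscaf2839, where the hindwing peak at 173969 to 174938 lay wholly within the forewing peak at 173893 to 175013 and shared its centre. On nscaf3058 the hindwing peak at 5107696 to 5109573 and the forewing peak at 5107672 to 5109511 shared 1816 bp. On nscaf3032 the hindwing peak at 1250439 to 1251864 and the forewing peak at 1250395 to 1251813 shared 1375 bp. The least aligned was the widest, on nscaf3072, where the forewing peak at 974868 to 979567 began before the hindwing peak and covered 71.6% of it.

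**Figure D5:**
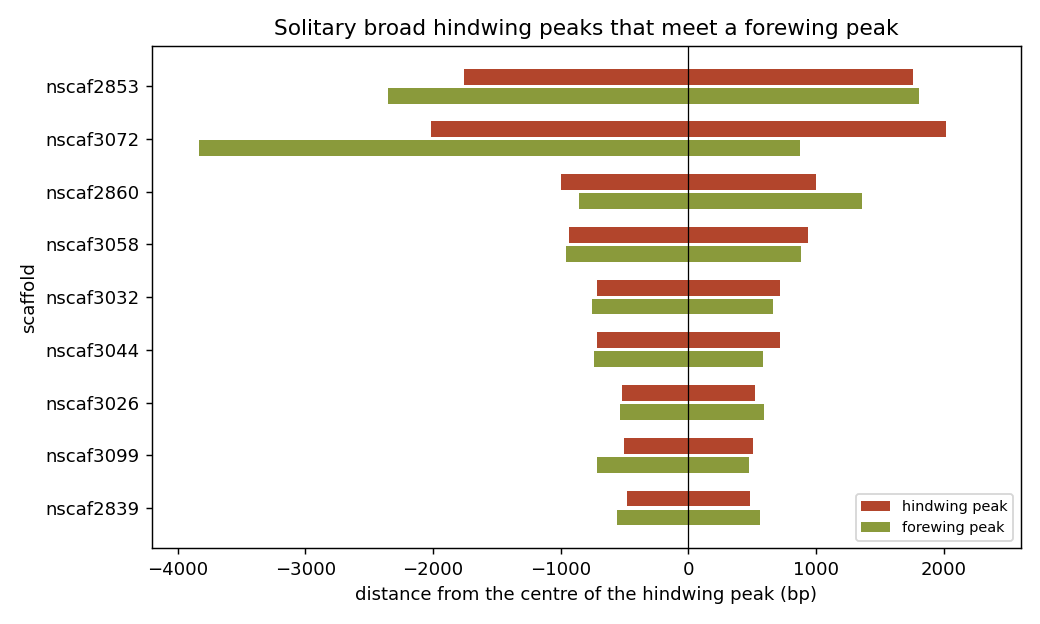
The 9 solitary broad hindwing peaks that met a forewing peak, drawn to scale as distance in bp from the centre of the hindwing peak, with the hindwing peak above the forewing peak on each scaffold. In 8 of the 9 the centres lie within 275 bp of each other, and on nscaf3072 they lie 1480 bp apart.

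Most of the shared regions were among the stronger ones on both sides. On the hindwing side, those on nscaf3099 and nscaf2839 scored 217.9 and 225.4, below the median of 255.6 over all solitary broad peaks. The 9 hindwing peaks had scores from 217.9 to 3100 (median 614.1) and folds from 5.34 to 18.9 (median 7.31), while the other 284 solitary broad peaks had a median score of 251.4 and a median fold of 4.78. In the forewing list their scores ran from 56.4 to 3100 (median 323.6, against 98.8 over all 339 forewing peaks), and 8 of the 9 were at or above 164.6, a score that 85 of the 339 reached. The exception was nscaf3032, with a forewing score of 56.4 beside a hindwing score of 557.9. The 5 forewing peaks met by solitary narrow peaks had scores from 104.5 to 145.6, all below 164.6. These are small numbers, and the values were not tested. Folds are not compared between the wing buds, since the replicate behind each list is not named.

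The solitary broad peak of highest score lay on a forewing peak that also had the top score of its list. On nscaf2853 the hindwing peak at 889734 to 893247 lay wholly within the forewing peak at 889136 to 893295, and both had a score of 3100. Neither anti-Ubx list holds a higher score, while the IgG lists reach 3185 and 3233. Equal scores of 3100 may thus not mean equal strength. On nscaf2860 the peaks at 660459 to 662455 in hindwing and 660603 to 662815 in forewing had scores of 865.1 and 424.6. On nscaf3026 the peaks at 2982236 to 2983270 in hindwing and 2982218 to 2983340 in forewing had scores of 725.9 and 290.4. The other 2 shared regions were the hindwing peaks on nscaf3044, 336958 to 338395, and on nscaf3099, 451271 to 452279. The second, with a fold of 5.34, is also the peak that passed the distance limit most narrowly.

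IgG peaks mark regions that are pulled down without the anti-Ubx antibody. The authors reported subtracting them, a step that can by itself make overlaps few. Few solitary broad peaks met one, and the shares and tests here cover only overlaps that remained. The central base lay in an IgG list 1 peak for 2 of 293 solitary broad peaks (0.683%) and 1 of 416 narrow ones (0.240%), against 0.355% of all hindwing peaks. In IgG list 2 it did so for 7 solitary broad peaks (2.39%) and 4 narrow ones (0.962%), against 1.51% of all. Neither difference passed (two-sided Fisher's exact test, adjusted p = 0.572 and 0.323). The intervals of the differences ran from -0.772 to 2.22 and from -0.498 to 3.96 percentage points. With so few overlaps, the counts were compatible with any difference within these limits.

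By any overlap, 18 solitary broad peaks (6.14%, Wilson 95% interval 3.92% to 9.50%) met a peak of at least 1 IgG list. So did 10 solitary narrow peaks (2.40%, 1.31% to 4.37%), 21 of the 419 peaks with a close neighbour (5.01%) and 4.34% of all hindwing peaks. Width enters these counts, so they were not compared. Of the 18, 7 met list 1 (2.39%, against 1.15% of all hindwing peaks) and 11 met list 2 (3.75%, against 3.19%), and 0 met both. Peaks with a close neighbour met list 1 in 0.955% (4 of 419) and list 2 in 4.06% (17 of 419). The 7 on list 1, whose header names hindwing, included the widest peak, nscaf3072, 976680 to 980714, with 823 bp shared, and the peak of second-highest score, nscaf1681, 5878630 to 5882006, which met 2 IgG peaks. The others of list 1 that shared most bases were on nscaf3099, 282457 to 285361 (783 bp), nscaf2859, 824811 to 827309 (663 bp), and nscaf3078, 181399 to 183434 (592 bp). On list 2 the most bases were shared by nscaf2511, 2581624 to 2583117 (788 bp), nscaf3026, 2982236 to 2983270 (618 bp), scaffold1797, 1 to 917 (617 bp), nscaf3044, 999386 to 1001295 (598 bp), and nscaf2889, 2472080 to 2473854 (552 bp). The share of the hindwing peak that an IgG peak covered ran from 0.592% to 52.0% on list 1 and from 19.1% to 67.3% on list 2, so no solitary broad peak was covered whole by a single IgG peak.

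The IgG peaks at these places had low deposited folds, although all were called peaks. Their scores ran from 59.7 to 257.0 on list 1, where the median of all peaks was 179.0. On list 2 the scores ran from 68.5 to 643.35, with a median of 438.6 over all peaks. Input libraries kept more tags than IgG ones, 15271372 against 3309855 for list 1 and 18224172 against 2152046 for list 2. Whether the folds were scaled for this depth was not known. The IgG fold ran from 0.83 to 1.48 on list 1, where the median of all 10213 peaks was 1.23, with 18 to 37 tags per peak. On list 2 it ran from 0.41 to 1.04, where the median of all 8986 peaks was 1.10, with 13 to 29 tags. The solitary broad peaks they met had anti-Ubx folds from 3.53 to 7.36 and from 1.98 to 13.6. IgG and anti-Ubx folds come from libraries of different depth and share no scale. Without the 18 peaks, the median score of solitary broad peaks was 252.6 and the median fold was 4.82, close to the values with them. Of the 9 peaks shared with forewing, 2 met an IgG peak, those on nscaf3072 and nscaf3026. Without all peaks that met an IgG peak, an alternative chosen after the data were seen, 7 of 275 solitary broad (2.55%) and 4 of 406 solitary narrow peaks (0.985%) had their centre in a forewing peak (two-sided Fisher's exact test, adjusted p = 0.390). Most solitary broad peaks, 268 of 293, met neither a forewing nor an IgG peak. Such overlaps were also rare over all 1128 hindwing peaks, of which 2.75% met a forewing peak and 4.34% an IgG peak. Meeting neither was thus not particular to solitary broad peaks.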

How the data were processed

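As the labels and methods state, the authors aligned reads with Bowtie 0.12.7, called peaks with MACS against input, kept peaks with an FDR of at most 15%, reported subtracting IgG peaks and kept peaks common to both replicates; bedtools is also named. The headers of both IgG lists give MACS 1.4.0rc2, a p-value limit of 1e-05 and at most 2 tags per position kept. The tag counts per IgG peak were deposited as whole numbers, not normalized. Scores were deposited as 10 times the −log10 p of MACS, fold enrichment as the deposited ratio over local input background, and FDR as a deposited percent. The anti-Ubx lists have no header, so their 3 value columns were assigned by range. The build is not given in the sources used here. Coordinates count from 1, with anti-Ubx starts read as counting from 0. Sequence and genes near the peaks were not analysed here.

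Gaps were measured edge to edge. Overlap, gap and numbering scripts were tested on simulated data. Shares carry Wilson intervals, differences Newcombe intervals at the 95% level, and Fisher's exact test was two-sided with Benjamini-Hochberg adjustment over 3 tests. Regions named are the 5 widest, the 5 of highest score and of highest fold, the 3 on each side of the width limit, the 3 with the smallest gap, those on forewing peaks and the 10 that shared most bases with IgG peaks. Peaks just under the gap limit, nscaf2681, peaks alone on a scaffold and the scaffolds named were chosen after values were seen. The members and lists were chosen with earlier results of these data known. Alternatives covered the width and gap limits, what counts as lying on a peak, IgG FDR, scaffold extent and leaving out IgG libraries. Python 3.11.15, numpy 2.4.6, pandas 2.3.3, scipy 1.17.1 and matplotlib 3.10.9 were used.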

Additional observations from a re-analysis of the deposited data

How the results depend on the processing

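The 7 results were recomputed in 35 alternatives, and in 31 neither the direction of a difference nor a call changed. The number of solitary broad peaks was 371 and 211 at width limits of 800 and 1000 bp, 329 and 246 at gap limits of 20000 and 50000 bp, and 259 on scaffolds of at least 1 Mb. The difference in the share on forewing peaks stayed positive in all 8 alternatives, from 1.56 to 2.79 percentage points, with adjusted p from 0.0692 to 0.450 by Fisher's exact test. With centres within 1000 bp, the difference on IgG list 1 reversed to -0.433 points, and with IgG peaks of FDR up to 15% that on IgG list 2 reversed to -0.279 points, since 2 solitary broad peaks were left on the list; neither had passed the threshold. Against 2 solitary broad peaks with their centre in an IgG list 1 peak, 7 met one by any overlap and 10 came within 1000 bp of one, and on IgG list 2 these numbers were 11 and 18 against 7. Leaving out each IgG library gave 7 to 11 solitary broad peaks on the other list, against 18 on at least 1. Added after the data were seen were 4 of the alternatives, on IgG peaks and on scaffold extent. The median tags, sequence content and summit were not run, because the hindwing list gives neither tags nor summits and no genome of the build was used. No paired analysis was possible because each anti-Ubx peak has only a single set of values. With 9 and 4 peaks on forewing peaks, small numbers limit the comparison.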

Other observations

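Of the 293 solitary broad peaks, 16 (5.46%) were the only listed hindwing peak on their scaffold, as were 56 of 416 solitary narrow peaks (13.5%). For these the distance rule had no other peak to measure. They ranged from weak to strong. The peak on scaffold779, 16784 to 17956, had a fold enrichment of 10.7, and that on nscaf1899, 1 to 1417, had a fold of 1.91, the second lowest of all solitary broad peaks. The peak on scaffold690, 32575 to 35327, measured 2753 bp with a fold of 3.10 and met a peak of IgG list 2. Peaks on scaffold1797 and scaffold2784 reached from base 1 to the largest peak end seen on their scaffold, at 917 and 1447 bp. Within 30000 bp of an end of the scaffold extent lay 23 solitary broad peaks (7.85%) and 50 solitary narrow peaks (12.0%), so that on that side the rule could look less far. Scaffold ends are known here only from the peaks, which makes the extents lower bounds.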
